A study of Mus musculus with 18 samples.

Results

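The CHD (chromodomain helicase DNA-binding) family of chromatin remodelers was examined in splenic regulatory T cells (Tregs) with and without Chd8. Its members were taken by gene symbol, Chd1 to Chd9, which are 9 of the 35865 genes listed once in the RNA table. RNA-seq was carried out on YFP+ cells sorted from splenic CD4+ T cells, with 1 library per mouse, 2 libraries labelled WT and 2 labelled Chd8-/-. The Chd8-/- mice are labelled CHD8Flox/FloxFoxp3YFP-Cre, in which Cre is driven from the Foxp3 locus and deletes the floxed Chd8 alleles in Foxp3-expressing cells. The WT mice are labelled CHD8flox/floxFoxp3YFP-Cre/+, whereas the study describes its controls as mice with the same Cre and unaltered Chd8, and the grouping of the study was used. All samples carry the treatment label "Poly IC injection", and the mice were 5 to 7 weeks old. Foxp3 is on the X chromosome, and a YFP+ cell of a female carrying floxed Chd8 alleles and 1 copy of the Cre allele would also express Cre. Levels are TPM, in which a read count is scaled by gene length and then by the total of the library, and can therefore be compared between genes.

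CHD proteins are ATPases that slide, space or evict nucleosomes, and their paired chromodomains bind histone tails. Subfamily I (Chd1 and Chd2) acts with elongating RNA polymerase, subfamily II (Chd3, Chd4 and Chd5) supplies the ATPase of the NuRD deacetylase complex, and subfamily III (Chd6 to Chd9) is marked by BRK domains. Chd8 binds beta-catenin and components of the MLL methyltransferase complex and is a leading autism risk gene.

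The libraries held between about 9200000 and 13200000 reads by an estimate in genes, recovered from the step between TPM values of short genes, of which 89.2% to 94.7% came out as whole reads within 0.1 read. All 7 Treg markers were present in every library, with a summed TPM of 3583 and 3692 in WT and 4006 and 3342 in Chd8-/- libraries. Foxp3 (202.8 to 232.1 TPM), Il2ra and Ikzf2 overlapped between genotypes. Ctla4 and Tnfrsf18 were higher with no overlap in Chd8-/- libraries, and Cd4 and Cd3e were lower with no overlap. Over all genes tested, 14.8% were higher and 27.8% lower with no overlap. The log2 fold changes were 0.51 for Ctla4, 0.73 for Tnfrsf18, -0.36 for Cd4 and -0.26 for Cd3e. Their limma adjusted p was 0.591, 0.481, 0.526 and 0.591 in that order. Both Chd8-/- libraries stood apart from WT in some other markers, in opposite directions. The summed TPM of 5 myeloid markers was 1443 in Chd8-/- replicate 2, against 141.2 and 117.2 in WT and 27.9 in Chd8-/- replicate 1. That of 5 erythroid markers was 1946 in Chd8-/- replicate 2, against 384.5 and 351.3 in WT and 8.5 in Chd8-/- replicate 1. Lyz2 made up 1360.3 TPM of the myeloid sum in Chd8-/- replicate 2. The erythroid Alas2 was at 7.5 TPM in that library, the lowest of the 4, against 15.0 and 21.5 TPM in WT. The summed TPM of 4 B cell markers (Cd79a, Cd79b, Ms4a1 and Ebf1) was 135.8 there, against 24.5 to 43.1 elsewhere, while Ebf1 was at 0.2 TPM. The summed TPM of 5 CD8 and NK markers was 29.3 and 40.6 in WT and 11.3 and 37.6 in Chd8-/- libraries, and that of 6 proliferation markers was 174.2 and 246.1 in WT and 199.3 and 289.7 in Chd8-/- libraries. Xist was at 500.2 to 843.3 TPM and the Y-linked Ddx3y, Eif2s3y, Kdm5d and Uty were listed at 0 in all 4 libraries, although both sexes are described for each genotype. Of 136 genes listed on the Y chromosome, 2 had at least 1 TPM in any library, and the highest value was 24.9 TPM. The part of these differences in the CHD values was not tested, and the values without Chd8-/- replicate 2 are given beside each tested CHD gene. They keep Chd8-/- replicate 1, with its low myeloid and erythroid sums.

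Chd2 and Chd1 carried most of the CHD transcripts. In WT Tregs, Chd2 was at 279.3 and 287.2 TPM and Chd1 at 155.4 and 166.9 TPM, above 94.0% to 97.2% of the 15240 genes tested in the same library. Together they made up 81.0% and 79.8% of the summed CHD level in WT replicates 1 and 2. They were followed, at far lower levels, by Chd8, Chd3 and Chd4.

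The WT order after Chd2 and Chd1 was Chd8 (26.15 ± 2.05 TPM, SD, n = 2), Chd3 (25.45 ± 2.19), Chd4 (22.95 ± 3.75), Chd7 (13.1 ± 0.566), Chd6 (13 ± 0.566), Chd9 (7.65 ± 0.354) and Chd5 (0.1 TPM in both). Chd8 and Chd3 overlapped between libraries, as did Chd3 and Chd4, and Chd7 and Chd6. All other neighbours in this order were separated, the lowest value of the higher gene exceeding the highest value of the lower one. The level of Chd9 depends on the gene length used for TPM, since its exons sum to 11565 bases in curated RefSeq transcripts and to 32704 bases over all of its RefSeq models.

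**Figure D1:**
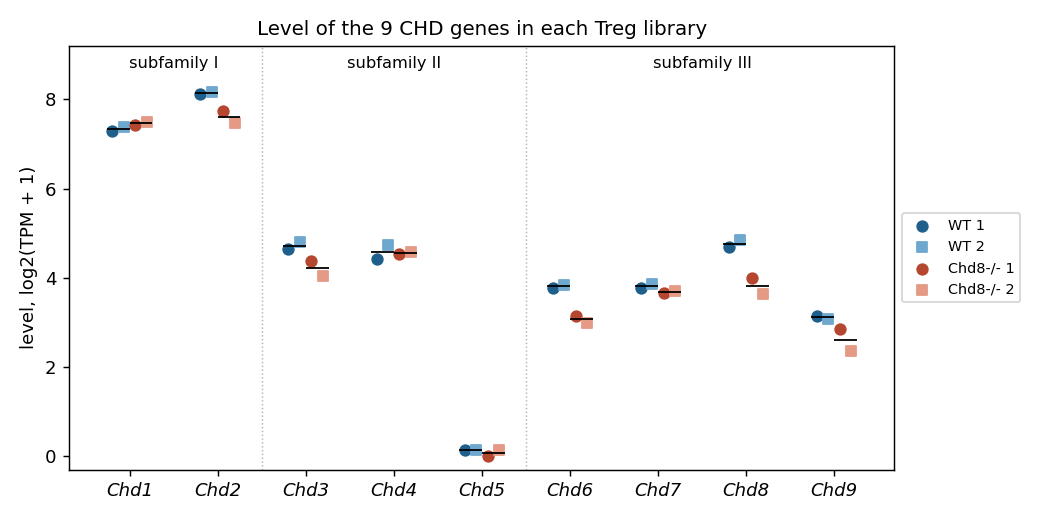
Level of each CHD gene as log2(TPM + 1) in each library, with WT in blue and Chd8-/- in red, circles for replicate 1, squares for replicate 2 and a line at each genotype mean. Chd1 and Chd2 lie far above the other genes, Chd5 lies at or near 0, and the Chd8-/- points of Chd8, Chd6, Chd2, Chd3, Chd7 and Chd9 lie below their WT points.

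Chd8, the deleted gene, was lower in both Chd8-/- libraries but was not lost. It stood at 24.7 and 27.6 TPM in WT and at 14.9 and 11.4 TPM in Chd8-/- replicates 1 and 2. The genotypes did not overlap, and the Chd8-/- mean was 50.3% of the WT mean. These levels rested on an estimated 1020 and 1209 reads in WT and 852 and 510 reads in Chd8-/- libraries, and the 95% Poisson interval of the lowest library was 10.4 to 12.4 TPM, which covers counting error only. The exons that the floxed allele removes are not given in the sources used here, and the value counts reads over all exons of the gene (GRCm38, chr14:52198151-52258042, minus strand, 42 distinct exons). These exons share 654 bases with exons of Gm26590 on the opposite strand. In Tregs isolated as CD4+CD25+ cells, the paper reports a strong knockout band and a faint floxed band by PCR. By qPCR it reports a marked reduction of Chd8 in such cells. A residual level in all sorted cells and the full level in a fraction of them cannot be told apart in bulk RNA, nor can fewer cells of a type and less RNA per cell.

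The log2 fold change of Chd8 on the log2(TPM + 1) scale, on which all fold changes are given, was -0.95 (SE 0.29, 95% interval -1.73 to -0.17, limma Benjamini-Hochberg adjusted p = 0.455). It did not pass an adjusted p of 0.05, and 12.6% of the genes tested had a lower fold change. No gene passed: 0% of 15240 genes were called at an adjusted p of 0.05 (smallest 0.0807), while 960 genes (6.3%) were lower and 595 (3.9%) higher at an unadjusted p of 0.05. Without Chd8-/- replicate 2 the fold change was -0.77, and without replicate 1 it was -1.13.

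The median gene was lower in the Chd8-/- libraries on this scale, and more so in replicate 2. Over the genes tested, the median log2 fold change was -0.15, and 11.6% of genes lay at -1 or lower. This median was -0.04 without Chd8-/- replicate 2 and -0.25 without Chd8-/- replicate 1. By quantile normalization the median was 0.00, and genes past 1 in size changed from 781 higher and 1768 lower to 1146 higher and 1231 lower. At an unadjusted p of 0.05 that split went from 595 higher and 960 lower to 786 and 790. Set against the median of all genes, the difference was -0.80 for Chd8, -0.59 for Chd6, -0.40 for Chd2, -0.36 for Chd3 and Chd9, 0.02 for Chd7, 0.14 for Chd4 and 0.28 for Chd1.

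Of the 9 members, 8 passed the filter of 1 TPM in 2 libraries, 7 had a fold change below 0, and the libraries of 6 lay lower in Chd8-/- with no overlap. Over all genes, 60.5% had a fold change below that of Chd4 (-0.01), and 27.8% were lower and 14.8% higher with no overlap. Among 2608 genes with at least 6000 bp of exons, the class to which every CHD gene belongs, 42.6% were lower with no overlap. The median log2 fold change of the 8 was -0.51, against -0.15 for all genes tested. Chd8, the deleted gene, is included in these counts and in this median. At an unadjusted p of 0.05, 6.3% of all genes were lower and 3.9% higher. Of the members, 2 were lower (Chd8 and Chd2) and 0 higher. This count was 0 with the replicate number as a block and without WT replicate 1, WT replicate 2 or Chd8-/- replicate 2. It was 1 (Chd8) with the length trend removed, and without the mean-variance trend it was Chd8 and Chd6. No member, 0 of 8, reached a log2 fold change of -1. No member passed the adjusted threshold in limma, with adjusted p from 0.455 to 0.991.

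**Figure D2:**
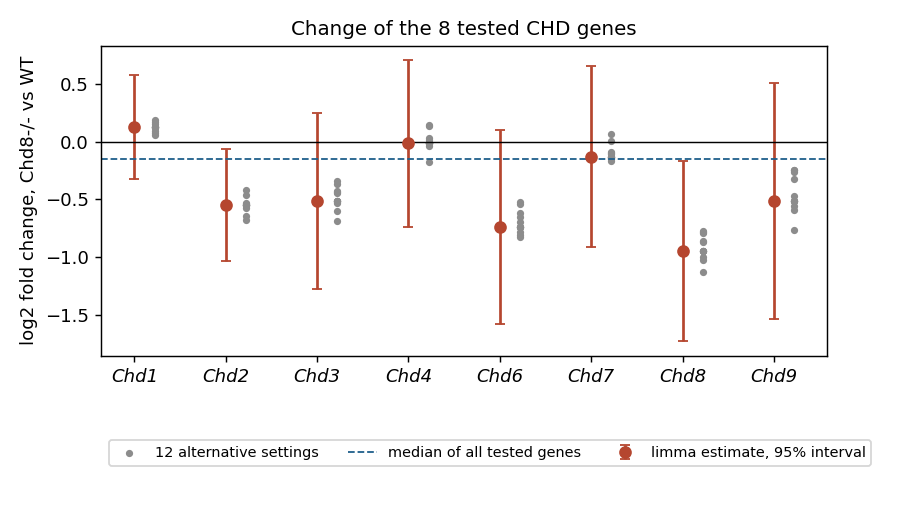
Log2 fold change of the 8 tested CHD genes (red, with the 95% interval of limma), the same value under 12 alternative settings (grey) and the median of all genes tested (dashed). The intervals of Chd8 and Chd2 lie below 0, and the grey points of Chd4 and Chd7 fall on both sides of it.

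The other subfamily III genes were Chd6, Chd7 and Chd9. Chd6, a remodeler linked to oxidative stress responses, was at 12.6 and 13.4 TPM in WT and at 7.9 and 6.9 TPM in Chd8-/- Tregs, and the genotypes did not overlap. Its mean in Chd8-/- Tregs was 56.9% of that in WT, the lowest proportion after Chd8 among the members tested. The log2 fold change was -0.74 (SE 0.31, 95% interval -1.59 to 0.11, limma adjusted p = 0.529). It ranged from -0.82 to -0.65 with each library left out and was -0.65 without Chd8-/- replicate 2.

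Chd7, the gene mutated in CHARGE syndrome, was at 12.7 and 13.5 TPM in WT and at 11.7 and 12.1 TPM in Chd8-/- Tregs. Its libraries did not overlap, but all 4 lay close together. The log2 fold change was -0.13 (95% interval -0.91 to 0.65, limma adjusted p = 0.897), and it turned to 0.06 by quantile normalization and to 0.01 once the trend with transcript length was removed. Without Chd8-/- replicate 2 it was -0.15. The gap between the WT libraries was 0.09 and that between the Chd8-/- libraries 0.05 on the log2 scale, against 0.07 expected from counting error in each pair.

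Chd9, the lowest of the expressed members, was at 7.9 and 7.4 TPM in WT and at 6.2 and 4.1 TPM in Chd8-/- Tregs. The 2 Chd8-/- libraries were both below WT but differed by 0.60 on the log2 scale, against 0.11 expected from counting error. The log2 fold change was -0.51 (95% interval -1.54 to 0.51, limma adjusted p = 0.687). It was -0.26 without Chd8-/- replicate 2, -0.76 without replicate 1, and -0.25 with the length trend removed, where the genotypes overlapped. That removal took Chd9 at 32704 bases, over all of its RefSeq models, and not at the 11565 bases of curated transcripts.

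The 5′ flank of Chd6, the member with the lowest fold change after Chd8, is shown for its sequence context. It is the 250 bases before the annotated start in RefSeq (GRCm38.p6, chr2:161109087-161109336, minus strand), printed 5′ to 3′ on the strand of the gene, with capitals marking the GC box (GGGCGG, bound by Sp factors) and the ETS core (CCGGAA) on either strand.
Chd6: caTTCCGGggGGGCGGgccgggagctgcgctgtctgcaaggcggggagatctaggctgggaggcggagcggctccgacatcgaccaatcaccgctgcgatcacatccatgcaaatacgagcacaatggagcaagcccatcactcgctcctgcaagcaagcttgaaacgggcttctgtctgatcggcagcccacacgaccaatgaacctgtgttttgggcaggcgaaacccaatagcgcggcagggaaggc
The Chd6 window held 1 GC box and 1 ETS core. The window of Chd8 (chr14:52257761-52258010, minus strand) precedes the start of its curated transcript but lies in the first exon of longer predicted transcripts, and it held 3 GC boxes and no match to the ETS core. Over all 32817 windows of this length, 32.7% held a GC box and 12.0% an ETS core. The windows of Chd8 and Chd6 were rich in GC, at 70.0% and 61.6% against a median of 52.4%, and in CpG, with an observed over expected ratio of 0.653 and 0.803 against a median of 0.373. The RefSeq table matched 5 of the 9 members (Chd4, Chd5, Chd6, Chd8 and Chd9), with 8 windows, some of which overlap, and a GC box was found in all of them except the second window of Chd9, which had a GC content of 33.6%.

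In subfamily I, Chd2 was lower and Chd1 was not. Chd2, which spreads the histone variant H3.3 and is mutated in childhood epilepsies, was at 279.3 and 287.2 TPM in WT and at 211.5 and 176.4 TPM in Chd8-/- Tregs. The genotypes did not overlap, and the Chd8-/- mean was 68.5% of the WT mean. In absolute level this was the largest difference of the family, with -89.3 TPM between the means against -105.2 TPM for the family sum. The log2 fold change was -0.55 (SE 0.18, 95% interval -1.03 to -0.07, limma adjusted p = 0.465), with -0.42 without Chd8-/- replicate 2 and -0.64 by quantile normalization.

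Chaserr, a long noncoding RNA gene that lies next to Chd2 on the same strand and is known to restrain Chd2, is listed under its older symbol 1810026B05Rik. It was at 169.1 and 178.6 TPM in WT and at 107.6 and 73.5 TPM in Chd8-/- Tregs, and was therefore lower together with Chd2. Its log2 fold change was -0.96 (SE 0.25, limma adjusted p = 0.433; -0.69 without Chd8-/- replicate 2), and it was named after its values were seen. Exons of the genes share 634 bases in RefSeq, so that the level of each is uncertain by the reads in these bases.

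Chd1, a remodeler of transcribed chromatin, was at 155.4 and 166.9 TPM in WT and at 171.9 and 179.6 TPM in Chd8-/- Tregs. It was the only member with both Chd8-/- libraries above both WT libraries. Exons of Chd1 share 346 bases with exons of 5830433I10Rik on the opposite strand. The log2 fold change was 0.12 (95% interval -0.33 to 0.58, limma adjusted p = 0.822), and it was 0.06 by quantile normalization, where the genotypes overlapped, and 0.07 without WT replicate 1. Without Chd8-/- replicate 2 it was 0.094.

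The levels of Chd2 and Chd1 therefore came together in Chd8-/- Tregs. The ratio of Chd2 to Chd1 was 1.80 and 1.72 in the WT libraries and 1.23 and 0.982 in the Chd8-/- libraries. Chd2 exceeded Chd1 in both WT libraries and in 1 of the 2 Chd8-/- libraries. This ratio does not depend on the library scaling. An exact permutation test of 2 against 2 libraries (two-sided) cannot give a p below 0.333, the value obtained here.

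In subfamily II, Chd3 and Chd4, the alternative Mi-2 ATPases of NuRD, differed in their values. Chd3 was at 23.9 and 27.0 TPM in WT and at 19.9 and 15.4 TPM in Chd8-/- Tregs, with no overlap, a log2 fold change of -0.51 (95% interval -1.27 to 0.25, limma adjusted p = 0.599) and a value of -0.34 without Chd8-/- replicate 2. Chd4 was at 20.3 and 25.6 TPM in WT and at 22.2 and 23.0 TPM in Chd8-/- Tregs, so that both Chd8-/- libraries lay between the WT libraries. Its log2 fold change was -0.01 (95% interval -0.74 to 0.71, limma adjusted p = 0.991), and 4 of 12 alternatives turned it positive, up to 0.15. Without Chd8-/- replicate 2 it was -0.037.

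Chd5, the NuRD ATPase of brain and testis, was at 0.1 TPM in 3 libraries and at 0 in Chd8-/- replicate 1. These values stand for about 5 reads where it was listed above 0, and the floor of 3 reads in the library at 0 corresponds to 0.047 TPM. It did not pass the filter and no fold change is given.

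The summed level of the family was lower in Chd8-/- Tregs. Chd1 to Chd9 together gave 536.9 and 568.7 TPM in WT and 466.2 and 429.0 TPM in Chd8-/- Tregs, and the genotypes did not overlap. The difference of the means was -105.2 TPM, against SDs of 22.5 in WT and 26.3 in Chd8-/- Tregs (n = 2 each, exact permutation p = 0.333, the smallest possible), -92.2 TPM with Chd8 itself left out of the sum and -86.6 TPM without Chd8-/- replicate 2.

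The sums of all 3 subfamilies were lower in both Chd8-/- libraries than in both WT libraries. Subfamily III was at 57.9 and 61.9 TPM in WT and at 40.7 and 34.5 TPM in Chd8-/- Tregs. The difference of its means was -22.3 TPM, of which Chd8 itself made up -13.0 TPM. Subfamily I was at 434.7 and 454.1 TPM in WT and at 383.4 and 356.0 TPM in Chd8-/- Tregs. Its means differed by -89.3 TPM for Chd2 and by 14.6 TPM for Chd1. Subfamily II was at 44.3 and 52.7 TPM in WT and at 42.1 and 38.5 TPM in Chd8-/- Tregs. Its means differed by -7.8 TPM for Chd3 and by -0.35 TPM for Chd4. As a share of the family sum, subfamily III with Chd8 included stood at 10.8% and 10.9% in WT and at 8.73% and 8.04% in Chd8-/- Tregs.

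Shares within the family do not depend on the total of a library. Chd8 held 4.60% and 4.85% of the family sum in WT and 3.20% and 2.66% in Chd8-/- Tregs. Chd1 held 28.9% and 29.3% in WT and 36.9% and 41.9% in Chd8-/- Tregs, and Chd2 held 52.0% and 50.5% in WT and 45.4% and 41.1% in Chd8-/- Tregs. None of these 3 shares overlapped between the genotypes, with an exact permutation p of 0.333 for each.

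**Figure D3:**
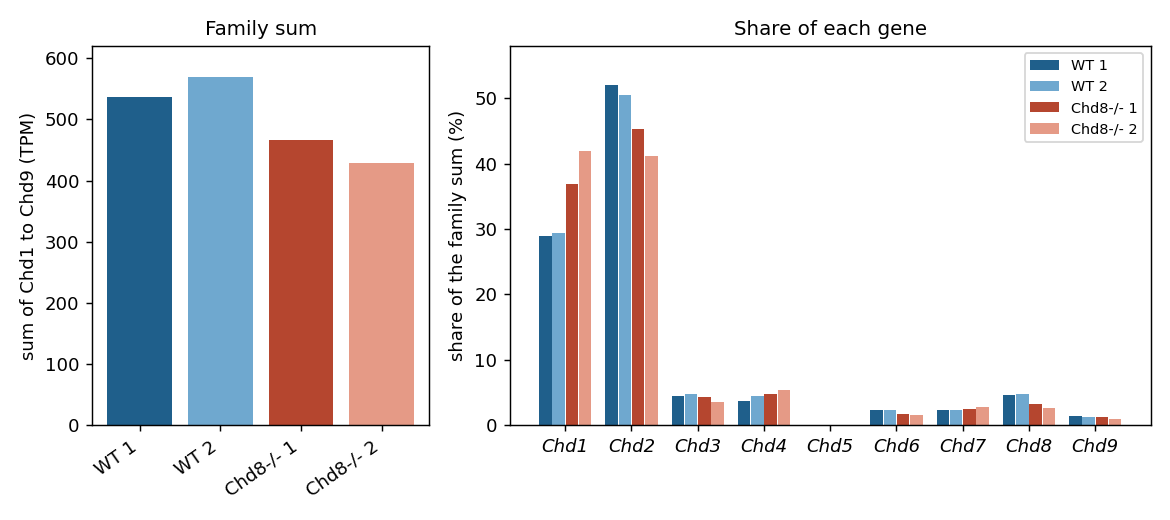
Left, summed TPM of Chd1 to Chd9 in each library. Right, share of each gene in that sum (%). The Chd8-/- libraries (red) had sums of 466.2 and 429.0 TPM, below both WT libraries (blue), a larger share of Chd1 and a smaller share of Chd2 and Chd8.

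The order of the members was different in Chd8-/- Tregs, since Chd8 went from the third to the fifth place by mean level. Chd4 (22.6 ± 0.566 TPM, SD, n = 2) and Chd3 (17.65 ± 3.18) were now above Chd8 (13.15 ± 2.47), and Chd7 (11.9 ± 0.283) overlapped with it. The ratio of Chd8 to Chd7 was 1.94 and 2.04 in WT and 1.27 and 0.942 in Chd8-/- libraries, and that of Chd8 to Chd4 was 1.22 and 1.08 in WT and 0.671 and 0.496 in Chd8-/- libraries. Neither ratio overlapped between genotypes.

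From 1000 bp of exons upwards, classes of longer genes had lower median fold changes. CHD genes are long, and the median log2 fold change of genes with summed exons of 6000 to 8000 bp was -0.19 (1199 genes), that of 8000 to 12000 bp was -0.22 (925 genes) and that of longer genes -0.33 (484 genes), against -0.07 for 1000 to 2000 bp (2527 genes). The medians of the longest class were -0.26 in Chd8-/- replicate 1 and -0.38 in replicate 2. Genes below 1000 bp (1978 genes) did not follow this order, with a median of -0.16. Their medians were 0.04 in Chd8-/- replicate 1 and -0.36 in replicate 2. Of the 2608 genes of at least 6000 bp, with a median of -0.23, 7.63% had a fold change below that of Chd8, 13.1% below that of Chd6 and 21.3% below that of Chd2. Of the 8 tested members, 5 (Chd8, Chd6, Chd2, Chd9 and Chd3) lay below the median of these long genes. As many long genes lie below this median as above it, so the count is near an even split. It includes Chd8, the deleted gene. With the trend with length removed, the fold change of Chd8 was -0.86 and that of Chd6 -0.62.

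**Figure D4:**
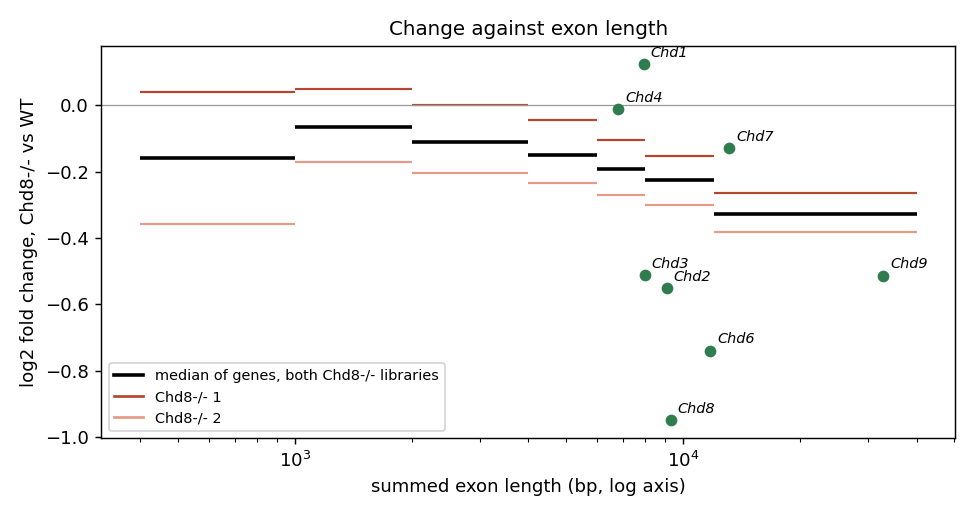
Log2 fold change of the tested CHD genes (green) against the summed length of their exons over all RefSeq models (bp, log axis), with the median of all genes in 7 length classes for both Chd8-/- libraries together (black) and for each (red), the first and last classes being open. The black medians are -0.16 below 1000 bp and go from -0.07 at 1000 to 2000 bp to -0.33 above 12000 bp. Of the CHD genes, Chd8 lies lowest.

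Genes with the pattern most like that of Chd8 were sought among 11349 genes with a mean of at least 5 TPM, by the root mean square difference of centred log2(TPM + 1) over the 4 libraries. The closest was S1pr1, the sphingosine 1-phosphate receptor, at 356.3 and 401.4 TPM in WT and 225.9 and 177.7 TPM in Chd8-/- Tregs, with a difference of 0.020. Ago3, an Argonaute protein, was at 9.1 and 10.3 TPM in WT and 5.5 and 4.1 TPM in Chd8-/- Tregs, with 0.029. Oas3, an interferon-induced oligoadenylate synthetase, was at 61.2 and 65.8 TPM in WT and 37.2 and 30.2 TPM in Chd8-/- Tregs, with 0.038. Of the family, Chd6 was closest to Chd8, at 0.127 and place 109, followed by Chd2 at 0.207 and place 485. With 4 libraries many genes take such a pattern, and the likeness is given as a description.

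Partners of the family were described as lists. Of the 12 NuRD subunits other than the CHD ATPases, all were tested, 6 had a fold change above 0 and 6 below, 4 were higher with no overlap (14.8% of all genes) and 2 lower (27.8% of all genes), 1 was higher at an unadjusted p under 0.05 (3.9% of all genes) and 0 lower (6.3%), and the median was -0.01 (0.14 by quantile normalization) against -0.15 for all genes. Rbbp7, a histone-binding WD40 protein, was at 176.8 and 212.8 TPM in WT and at 331.0 and 269.1 TPM in Chd8-/- Tregs (log2 fold change 0.62, limma adjusted p = 0.469). Its paralog Rbbp4 was at 73.5 and 67.0 TPM in WT and at 66.5 and 56.7 TPM in Chd8-/- Tregs (log2 fold change -0.19, and -0.077 without Chd8-/- replicate 2, -0.30 without replicate 1 and -0.12 without WT replicate 1).

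Mbd2, the methylated-DNA binding subunit, was at 82.2 and 88.3 TPM in WT and at 116.3 and 122.8 TPM in Chd8-/- Tregs (log2 fold change 0.48, limma adjusted p = 0.492). Mta2 and Mta3, alternative scaffold subunits, had values in opposite directions. Mta2 was at 55.0 and 52.5 TPM in WT and at 60.5 and 85.0 TPM in Chd8-/- Tregs (log2 fold change 0.41, 0.17 without Chd8-/- replicate 2 and 0.65 without replicate 1), and Mta3 at 22.7 and 22.3 TPM in WT and 20.6 and 20.7 TPM in Chd8-/- Tregs (log2 fold change -0.12, turning to 0.03 by quantile normalization). None of the 12 passed the adjusted threshold.

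The 6 partners of CHD8 (Wdr5, Ash2l, Rbbp5 and Dpy30 of the MLL complex core, Ctcf and Ctnnb1) overlapped between the genotypes in every case. Of all genes, 27.8% were lower and 14.8% higher with no overlap, so most genes overlapped too. The median log2 fold change of the 6 was -0.08, against -0.15 for all genes, with 3 above and 3 below 0. At an unadjusted p under 0.05 there were 0, where 6.3% of all genes were lower and 3.9% higher. The log2 fold changes of the 6 ran from -0.59 for Dpy30 to 0.16 for Ctnnb1. Ctnnb1, which encodes beta-catenin, was at 96.6 and 109.9 TPM in WT and at 128.3 and 102.9 TPM in Chd8-/- Tregs.

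Of 9 partners of CHD1 and CHD2 (subunits of FACT and of the PAF complex and the H3.3 genes), 5 had a fold change above 0 and 4 below, with a median of 0.013 (-0.045 by quantile normalization). With no overlap, 1 of the 9 was higher and 2 were lower, where 14.8% and 27.8% of all genes were. Supt16, the large FACT subunit, was at 194.5 and 236.4 TPM in WT and at 279.2 and 244.9 TPM in Chd8-/- Tregs (log2 fold change 0.29, limma adjusted p = 0.660), and the fold change was 0.19 by quantile normalization and ranged from 0.15 to 0.43 with each library left out. Paf1 was at 122.0 and 128.3 TPM in WT and at 110.5 and 73.1 TPM in Chd8-/- Tregs (log2 fold change -0.47, limma adjusted p = 0.608), and the fold change was -0.18 without Chd8-/- replicate 2 and -0.77 without replicate 1. Cdc73 had a log2 fold change of -0.20, of -0.082 without Chd8-/- replicate 2, of -0.31 without replicate 1 and of -0.034 with the length trend removed.

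Among 12 remodeler ATPases outside the family, 11 were tested, Smarca1 being listed at 0 in every library. Of these, 3 had a fold change above 0 and 8 below, and the median was -0.16 (0.010 by quantile normalization). With no overlap, 7 of the 11 were lower and 2 higher, where 27.8% and 14.8% of all genes were, and 1 was higher and 0 lower at an unadjusted p under 0.05 (3.9% and 6.3% of all genes). Hells, a remodeler of the SNF2 family needed for DNA methylation, was at 8.5 and 12.9 TPM in WT and at 22.6 and 21.1 TPM in Chd8-/- Tregs (log2 fold change 0.99, limma adjusted p = 0.470). Smarca5, the ISWI ATPase, was at 238.5 and 251.2 TPM in WT and at 305.4 and 299.1 TPM in Chd8-/- Tregs (log2 fold change 0.30). The lowest were Chd1l, whose name derives from Chd1 but which lacks chromodomains, at 16.8 and 16.7 TPM in WT and 14.4 and 10.3 TPM in Chd8-/- Tregs (log2 fold change -0.43, -0.20 without Chd8-/- replicate 2 and -0.65 without replicate 1), Ino80 (-0.30) and Smarcad1 (-0.27). Ino80 was at -0.10 without Chd8-/- replicate 1 and -0.50 without replicate 2, Chd1l at -0.25 by quantile normalization, and Smarcad1 at -0.024 by quantile normalization.

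**Figure D5:**
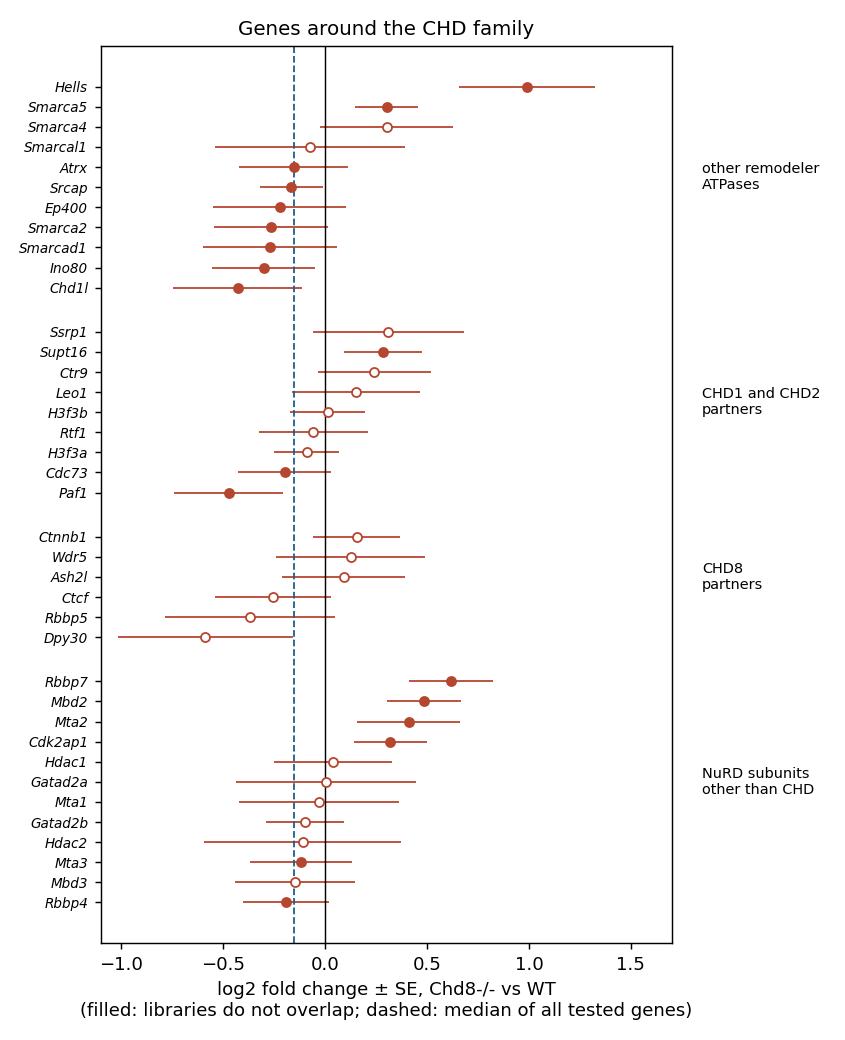
Log2 fold change ± SE of genes in the 4 lists around the family, filled where the 4 libraries do not overlap between genotypes, with 0 (solid) and the median of all tested genes (dashed). Hells lies highest, at 0.99, and all 6 CHD8 partners have open points.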

How the data were processed

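RNA-seq of 4 libraries was used. After trimming, the authors mapped reads to the mm10 genome with STAR (2.6.1e in the submitters' processing notes), dropped duplicates, counted over RefSeq genes with featureCounts (1.6.2), and deposited TPM values rounded to 0.1. From 35869 entries, 4 under repeated names were left out. The 15240 genes with at least 1 TPM in 2 or more libraries were compared as log2(TPM + 1) with limma 3.58.1 in R 4.3.3 (two-sided, eBayes with its trend option, p adjusted by Benjamini-Hochberg). The pseudocount understates changes of low genes. Values with 2 libraries per genotype come from separate mice. The fit was tested on simulated data. Reads behind TPM values were estimated from the step of short genes after the data were seen, and their intervals cover counting error only. Of genes tested, 91.1% had an exon length in the GRCm38.p6 annotation. Tables were made with Python 3.11.15, pandas 2.3.3, numpy 2.4.6 and scipy 1.17.1, and figures with matplotlib 3.10.9.

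The members and lists were chosen with earlier results of these data known. Genes named by rule are all members, up to 3 non-overlapping genes with the largest fold change in each direction of each of the 4 lists of partners and other remodelers, and the 3 genes most like Chd8. Chaserr, Ctnnb1 and single marker genes were named after their values were seen. ATAC and CHIP peaks were not analysed here, because their build (mm39) differs from the annotation used. Alternatives were pseudocounts of 0.1 and 5 TPM, other filters, quantile normalization, a replicate block, no trend, removal of the length trend, and each library left out. A planned marker gene is not reported here.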

Additional observations from a re-analysis of the deposited data

How the results depend on the processing

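The directions of Chd1, Chd2, Chd3, Chd6, Chd8 and Chd9 held under all 12 alternatives. The libraries of these members did not overlap between genotypes, so only quantile normalization and removal of the length trend could have reversed them. No member passed an adjusted p of 0.05 in the alternatives that kept all 4 libraries. Chd4 turned to 0.14 by quantile normalization and 0.032 with the length trend removed, and ranged from -0.17 to 0.15 with each library left out. Chd7 turned to 0.064 and 0.011 under the first 2 of these. A filter at a mean of 5 TPM gave 2 genes at an adjusted p of 0.05 instead of 0, and 1149 genes at a log2 fold change of -1 or lower. A pseudocount of 5 TPM gave 690 such genes and 362 at 1 or higher. By quantile normalization, 0 members were higher with no overlap instead of 1, the difference in the share of Chd8 was -1.29 percentage points against -1.80, and the median was 0.14 for NuRD subunits and 0.010 for other remodeler ATPases. The causes were not tested.

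With each library left out in turn, genes at an unadjusted p of 0.05 ranged from 332 to 2262 lower and from 220 to 919 higher, those past a log2 fold change of 1 from 1447 to 3107 lower and from 988 to 1366 higher, and those with no overlap from 5794 to 8032 lower and from 3359 to 4948 higher. The highest counts of lower genes came without Chd8-/- replicate 1. Members lower at an unadjusted p of 0.05 were 0 to 2 and members higher with no overlap 1 to 2. List medians were -0.089 to 0.23 for NuRD subunits, -0.23 to -0.11 for other ATPases, -0.27 (without Chd8-/- replicate 1) to 0.025 (without replicate 2) for CHD8 partners, and -0.13 to 0.15 (the same libraries) for CHD1 and CHD2 partners. A fit left with 1 library in a genotype assumes that it varies like the others. The replicate numbers did not pair the libraries (correlation of their deviations -0.01). The replicate block gave 831 genes lower and 505 higher at an unadjusted p of 0.05, with an adjusted p of 0.585 for Chd8, left 0 members at an unadjusted p of 0.05 instead of 2, and changed no call at an adjusted p of 0.05. Removal of the length trend left 1. The planned ATAC and CHIP alternatives were not run. With 2 libraries per genotype the intervals are wide, and depth limits Chd5.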
